A study of Mus musculus with 22 samples.

Results

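The 55 genes described here act in the G2 phase of the cell cycle and in mitosis, from the entry kinase CDK1 to the proteins that cut the cell apart. They were taken as a list of gene symbols and matched to the rows of the deposited expression table by gene name. All 55 were found, each in 1 row, among 54514 named entries, of which 13243 had a mean of at least 1 TPM over the 22 libraries. TPM, the unit of the table, is a transcript level adjusted for transcript length and scaled to the same total in each library. Mean levels of the 55 genes ran from 6.67 TPM for Ttk to 533 TPM for Cks1b, so every one of them passed the filter on low values in each comparison.

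The study sequenced RNA of mpkCCD cells, an immortalized mouse line of the renal cortical collecting duct. The labels name the mpkCCDc11 secondary clone 38. All groups were grown on transwell supports until polarized and were then kept in a simple medium without serum or growth factors that contained dexamethasone. Wild-type (WT) cells without a reporter were left without dDAVP or were given dDAVP, a vasopressin analog that acts on the V2 receptor, with 3 libraries each. The other 16 libraries came from C1, C11, C43 and C50, each a line of GFP reporter cells. All 4 lines received dDAVP, and the GFP-negative and GFP-positive cells of each line gave 2 libraries each. The labels do not name the promoter that drives GFP. They mention more than 1 dose and duration of dDAVP without saying which library received which, so dose and time were not analysed. Nothing in the labels says that libraries of a group came from separate cultures, so p-values measure only the spread between these libraries, which may be technical.

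A dividing cell passes from S phase through G2 into mitosis when CDK1, bound by cyclin A and then cyclin B, is switched on by the CDC25 phosphatases. FOXM1 and the MYB-MuvB complex switch on most genes of this programme late in the cycle, so their transcripts are abundant in cycling cells and scarce in resting ones. The spindle checkpoint holds the anaphase-promoting complex (APC/C) in check until kinetochores are attached, and the APC/C then destroys the B cyclins. Collecting duct principal cells in the kidney divide rarely, whereas a cell line such as mpkCCD is kept growing.

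Several facts of the libraries bear on the values. TPM keep no read depth, so the depth of each library is unknown here. The number of genes above 0 split the libraries into 10 with at most 20288 genes and 12 with at least 23174. This split ran through every group except the GFP-negative cells of C1, all with fewer genes, and of C11, all with more. Aqp2, which encodes the water channel that dDAVP induces, stood at 69.1 ± 5.44 TPM (SD, n = 3) in WT cells without dDAVP and at 2868 ± 139 TPM with it. GFP stood at means of 0.38 and 0.373 TPM in the WT groups, between 8.11 and 16.4 TPM in the GFP-negative groups and between 1114 and 1496 TPM in the GFP-positive groups, which matches the labels. Of 14 markers of principal cells, 13 had a mean of at least 1 TPM, and the summed level of the list lay between 9394 and 24730 TPM in the libraries. Krt18, Krt8 and Aqp2 held most of this sum, at 5507 to 10030, 2161 to 3812 and 64.1 to 7254 TPM. Avpr2 lay between 137 and 385 TPM, while Aqp3, Aqp4 and Scnn1b reached at most 4.13, 6.46 and 0.82 TPM. Among markers of other cell types, 0 of 7 fibroblast and 0 of 5 endothelial genes reached a mean of 1 TPM, with summed levels of at most 1.69 and 2.1 TPM. That mean was reached by 2 of 7 intercalated-cell (21.5 to 112 TPM), 2 of 6 leukocyte (12.1 to 31.6 TPM) and 1 of 5 proximal tubule genes (0.94 to 16.2 TPM).

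By summed TPM, to which abundant genes such as Cks1b contribute most, the 55 genes were highest in C50 GFP-negative cells and in WT cells without dDAVP, and lowest in the GFP-positive cells of C43 and C50. Their summed level was 5253, 5425 and 5559 TPM in the 3 WT libraries without dDAVP and 4060, 3322 and 4287 TPM in the 3 with it. In C1 it was 4349 and 4609 TPM in GFP-negative cells and 3508 and 3499 TPM in GFP-positive cells. In C11 the GFP-negative libraries summed to 4339 and 4680 TPM and the GFP-positive ones to 2499 and 2465 TPM. All libraries of the lower group lay below all of the higher group in each of these pairs. In C43 the sums were 5069 and 4752 TPM against 2266 and 2150 TPM. In C50 they were 5629 and 6372 TPM against 2235 and 2172 TPM. The 4 GFP-negative groups therefore spanned means of 4479 to 6000 TPM and the 4 GFP-positive groups means of 2203 to 3503 TPM. By the median of log2(TPM + 1) over the 55 genes the 2 C50 GFP-negative libraries stood apart, at 5.44 and 6.23. The first was the lowest of the 8 GFP-negative libraries and the second the highest of all 22, with the 3 WT libraries without dDAVP between them, at 5.92, 5.99 and 6.06. In bulk RNA, fewer cells in these phases and less of the RNA per cell cannot be told apart.

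**Figure D1:**
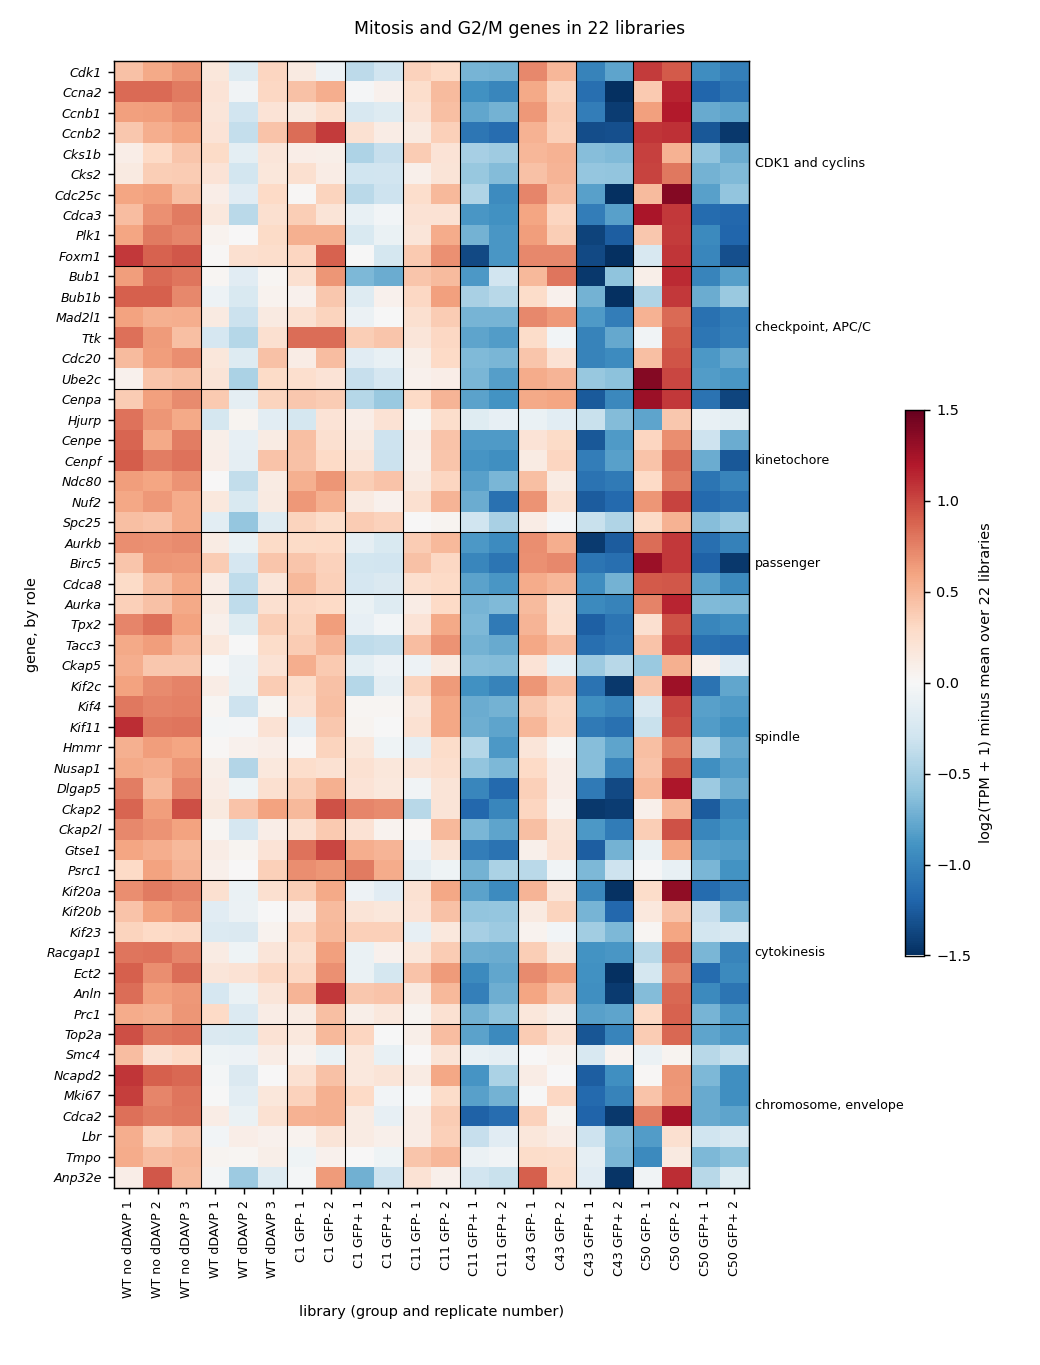
Level of each of the 55 genes (rows, grouped by role) in each of the 22 libraries (columns), as log2(TPM + 1) minus the gene's mean over the 22 libraries, with red above and blue below that mean. The GFP-positive libraries of C11, C43 and C50 are blue in most rows, while those of C1 are near the mean, and the first C50 GFP-negative library differs from the second in many rows.

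By mean level, C50 GFP-negative cells were the highest of the 10 groups for 27 of the 55 genes, WT cells without dDAVP for 22 and C1 GFP-negative cells for 6. C43 GFP-positive cells were the lowest for 35 genes, C50 GFP-positive cells for 18 and C11 GFP-positive cells for 2. WT cells with dDAVP were at neither end for any gene. All 8 GFP-positive libraries lay below all 8 GFP-negative libraries for 23 of the 55 genes, against 4.72% of all tested genes.

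Promoters of these genes are known for 2 short elements, the cell cycle genes homology region (CHR), which the MuvB complex contacts, and the CCAAT box, which NF-Y binds. The RefSeq promoter table (GRCm38.p6, 250 bases before to 50 after each start) held an entry for 46 of the 55 genes. The CHR was searched as TTTGAA or TTCGAA and the box as CCAAT, on both strands. The first motif reads TTCAAA and the box ATTGG on the other strand, TTCGAA is its own complement, and a CHR and a box can share no more than an end letter. CHR letters were found in 37 of the 46 promoters (80.4%), against 21.7% of the 27025 genes of the table. CCAAT letters were found in 37 as well (80.4%), against 41.1%. Both were present in 33 promoters (71.7%), against 9.65%. Of 38 further mitosis genes with an entry, 24 (63.2%) held CHR letters and as many held CCAAT letters. Of 36 replication genes with an entry, 8 (22.2%) held CHR letters and 22 (61.1%) CCAAT letters. A match is a description of letters and not a bound site. The stretches below are the 120 bases before the start, 5′ to 3′ in the direction of the gene, with CHR and CCAAT letters in capitals. They show genes of the CDK1, APC/C, passenger, spindle and chromosome groups, with Birc5 as a stretch without such letters and Lbr as a gene that did not pass the test between GFP fractions. For Birc5 the absence holds only for the stretch before this annotated start. These 7 were chosen after their values were seen.
Cdk1 (chr10:69352913-69353032, minus strand): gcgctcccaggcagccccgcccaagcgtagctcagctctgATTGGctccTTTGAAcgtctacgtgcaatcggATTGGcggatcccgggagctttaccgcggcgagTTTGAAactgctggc
Cdc20 (chr4:118437344-118437463, minus strand): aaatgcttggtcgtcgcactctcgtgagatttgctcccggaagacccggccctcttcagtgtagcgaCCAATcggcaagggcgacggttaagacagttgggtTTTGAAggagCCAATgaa
Ube2c (chr2:164769809-164769928, plus strand): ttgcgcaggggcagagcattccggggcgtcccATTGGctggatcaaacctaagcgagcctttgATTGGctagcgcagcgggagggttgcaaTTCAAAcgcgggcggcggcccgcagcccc
Birc5 (chr11:117849117-117849236, plus strand): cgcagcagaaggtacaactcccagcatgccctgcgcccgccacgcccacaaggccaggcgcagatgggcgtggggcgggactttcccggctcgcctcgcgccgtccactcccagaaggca
Kif11 (chr19:37376262-37376381, plus strand): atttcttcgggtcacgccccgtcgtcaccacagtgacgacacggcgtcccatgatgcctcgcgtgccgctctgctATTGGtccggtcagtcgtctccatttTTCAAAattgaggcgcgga
Top2a (chr11:99024190-99024309, minus strand): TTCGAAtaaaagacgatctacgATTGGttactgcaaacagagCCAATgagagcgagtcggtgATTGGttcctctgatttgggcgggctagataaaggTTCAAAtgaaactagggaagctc
Lbr (chr1:181842402-181842521, minus strand): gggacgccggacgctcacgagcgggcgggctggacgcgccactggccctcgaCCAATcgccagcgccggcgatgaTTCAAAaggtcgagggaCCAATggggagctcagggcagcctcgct
In Cdk1 the first letter of the CHR nearest the start lies 15 bases before it, in Cdc20 18, in Kif11 19, in Top2a 23 and in Ube2c 29. In Lbr it lies 45 bases before the start. The changes of genes with and without CHR letters are given as a description. The median log2 change with dDAVP in WT cells was -0.58 over the 37 genes with letters and -0.57 over the 9 without, and between GFP fractions it was -0.99 and -1.19.

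The first comparison asks what dDAVP does to these transcripts in WT cells. With dDAVP, 36 of the 55 genes fell and none rose, by limma at an adjusted p under 0.05, and 0 were higher at an unadjusted p under 0.05. Over all 13494 genes tested, 6.51% fell and 2.37% rose. Of the 13 principal-cell markers tested in this fit, 5 rose and 2 fell. The median log2 change of the 55 genes was -0.58, on the log2(TPM + 1) scale that holds for all changes here, against -0.16 over all tested genes. That is a log2 difference of -0.42 from the general shift. All 3 libraries with dDAVP lay below all 3 without it for 48 of the 55 genes, against 28.7% of all tested genes. The groups overlapped for Ccnb2, Cks1b, Cks2, Ube2c, Cenpa, Birc5 and Psrc1.

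This count depends on the scaling and on single libraries. Leaving out each of the 3 libraries without dDAVP in turn gave counts of 17, 15 and 10, against 1.72%, 1.49% and 1.18% of all genes. Leaving out each of the 3 with dDAVP gave 20, 37 and 26, against 1.81%, 12.4% and 1.29%. After median-ratio scaling, which brings the median of all genes from -0.16 to -0.0012, 16 of the 55 genes fell (2.42% of all genes), and the median log2 change was -0.41. The split over all genes then turned from 878 lower and 320 higher to 327 lower and 575 higher. In a fit chosen after the data had been seen, in which each library's trend along the genes' coding length was removed, 18 fell (4.91% of all genes), and its values are given below where a call of a named gene changed. Among the WT libraries with more genes above 0, which are 2 without and 2 with dDAVP, only Ncapd2 passed the test (adjusted p = 0.0415, against 0.122% of all genes), while the median log2 change of the 55 genes was -0.59. The other 2 WT libraries, 1 in each group, allow no test.

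In the CDK1 group, which holds the kinase, its cyclins, its small CKS partners and their regulators, 4 of 10 genes fell with dDAVP, with a group median log2 change of -0.53. Ccna2, cyclin A2, was 143, 144 and 136 TPM without dDAVP and 91.8, 76.4 and 98.6 TPM with it. It fell by 0.67 on the log2 scale (SE 0.10, limma adjusted p = 0.0122), and its groups did not overlap. Foxm1, the transcription factor of the programme, was 33.6, 29.5 and 30.7 TPM against 15.8, 18.6 and 18.9 TPM. It had the largest fall of this group, by 0.78 (SE 0.10, limma adjusted p = 0.00725). Ccnb1, cyclin B1, fell by 0.61 from 62.3, 62.7 and 65.7 TPM to 45.8, 32.9 and 46.4 TPM. Plk1, the polo kinase of mitotic entry and spindle assembly, fell by 0.58 from 42.5, 48.5 and 47 TPM to 29, 28 and 34.4 TPM. Both passed the threshold, with limma adjusted p-values of 0.0376 and 0.0211. With the trend along coding length removed neither passed, at -0.47 and -0.36 (limma adjusted p = 0.0501 and 0.0757). Ccnb1 also missed the threshold in 12 of the 17 alternatives run. Of the genes below that passed in WT cells, Lbr missed it in 12 as well. Mad2l1, Tpx2, Cenpf and Kif23 each missed it in 11, and Ndc80 and Kif20a each in 10. Cdk1 itself was 412, 448 and 480.3 TPM without dDAVP and 342, 264 and 378 TPM with it. Its groups did not overlap, and its log2 change of -0.46 (SE 0.13) did not pass (limma adjusted p = 0.0748). Cks1b, a CKS subunit that also serves the ubiquitin ligase SCF-SKP2, had the smallest change of the 55 genes. Its levels of 541, 619 and 674 TPM and 618, 455 and 574 TPM overlapped, with a log2 change of -0.16 (SE 0.13, limma adjusted p = 0.421) that was 0.01 after median-ratio scaling and -0.27 with the trend along coding length removed, where it passed (limma adjusted p = 0.0195). Ccnb2, cyclin B2, also overlapped, at 58.6, 64.4 and 67.1 TPM against 50.9, 34 and 59.4 TPM (limma adjusted p = 0.177). In Cdk1, Ccnb1 and Ccnb2 the second dDAVP library was the lowest of the 6.

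Of the 6 checkpoint and APC/C genes, 3 fell with dDAVP. Bub1b, which encodes the checkpoint protein BUBR1, was 62, 62.2 and 54.7 TPM without dDAVP and 31.2, 27.9 and 34.1 TPM with it, well apart. It fell by 0.92 (SE 0.10, limma adjusted p = 0.00386), a change next in size to those of Ncapd2 and Top2a among the 55 genes. Mad2l1, the checkpoint protein that binds CDC20, fell by 0.57 from 70.4, 67 and 67.5 TPM to 50.7, 36.8 and 50.7 TPM (limma adjusted p = 0.041). Mad2l1 missed the threshold in 11 of the 17 alternatives. The partner of MAD2L1, CDC20, is the activator of the APC/C. Cdc20 was 123, 136 and 143 TPM against 99.2, 76.7 and 119 TPM, a log2 change of -0.46 that did not pass (limma adjusted p = 0.0984). Ube2c, the ubiquitin-conjugating enzyme of the APC/C, was 279, 355 and 366 TPM against 305, 191 and 326 TPM. These overlapped, and the log2 change of -0.31 had an SE of 0.21 (limma adjusted p = 0.341).

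Kinetochore genes fell in 6 of 7 cases, with a median log2 change of -0.70. Hjurp, the chaperone that places CENP-A at centromeres, was 149, 134 and 125 TPM without dDAVP and 69.9, 86.3 and 75.1 TPM with it. It fell by 0.81 (SE 0.10, limma adjusted p = 0.00679), while Cenpa, the centromeric histone it carries, did not pass. Cenpa was 123, 145 and 154 TPM against 124, 85.5 and 119 TPM, with a log2 change of -0.37 (limma adjusted p = 0.153), and it passed with the trend along coding length removed (-0.41, limma adjusted p = 0.0209). The motor gene Cenpe was 19.5, 15.6 and 18 TPM against 10.9, 9.3 and 11.2 TPM, a fall of 0.70. Cenpf, a large protein of the outer kinetochore, fell by 0.70, from 38.7, 35.1 and 36.3 TPM to 21.6, 18.4 and 27.4 TPM. Ndc80, the microtubule-binding subunit of the NDC80 complex, fell by 0.71 from 36.6, 35.9 and 38 TPM to 23.6, 17.9 and 25.6 TPM. The limma adjusted p-values of Cenpe, Cenpf and Ndc80 were 0.0195, 0.0296 and 0.0241. None of these 3 passed with the trend along coding length removed, where the log2 changes were -0.26, -0.25 and -0.48 (limma adjusted p = 0.333, 0.457 and 0.0638). Among the 3 genes of the chromosomal passenger complex, which corrects wrong attachments, Aurkb, its kinase, fell by 0.59 (limma adjusted p = 0.0194). Aurkb was 98.5, 97.6 and 99 TPM against 65.5, 56.4 and 74.1 TPM, without overlap. Birc5, which encodes the survivin subunit, was 132, 156 and 155 TPM against 128, 82.3 and 132 TPM. It overlapped and did not pass (log2 change -0.39, limma adjusted p = 0.186).

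Spindle genes fell in 10 of 14 cases and cytokinesis genes in 6 of 7, with group medians of -0.54 and -0.61 on the log2 scale. Kif11, the motor that pushes spindle poles apart, was 47, 37.4 and 37.8 TPM without dDAVP and 20.9, 20.9 and 24.9 TPM with it. It fell by 0.84 (SE 0.12, limma adjusted p = 0.0102). Tpx2, the activator of Aurora A, fell by 0.63 (limma adjusted p = 0.0425), whereas Aurka, the kinase itself, did not pass. Aurka was 67.2, 71.4 and 77.9 TPM against 57, 40.2 and 61.8 TPM (log2 change -0.46, limma adjusted p = 0.105). Anln, the anillin scaffold of the contractile ring, was 69.1, 59 and 60.2 TPM against 31.8, 35.4 and 43.2 TPM, a fall of 0.76. The midzone motors Kif20a and Kif23 fell by 0.61 and 0.44. Prc1, the protein that bundles midzone microtubules, had a log2 change of -0.51. Its limma adjusted p of 0.0514 was just outside the threshold, with 115, 114 and 124 TPM against 96.6, 67.6 and 84.4 TPM. The limma adjusted p-values of Anln, Kif20a and Kif23 were 0.016, 0.0218 and 0.0291. With the coding-length trend removed, Tpx2, Kif20a and Kif23 did not pass, with log2 changes of -0.37, -0.32 and -0.13 (limma adjusted p = 0.148, 0.202 and 0.480).

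Chromosome and nuclear envelope genes held the 2 largest falls in WT cells. Ncapd2, a condensin I subunit, was 114, 99.6 and 97.3 TPM without dDAVP and 52.3, 45.6 and 53.5 TPM with it. It fell by 1.02 (SE 0.097, limma adjusted p = 0.00195) and was the only 1 of the 55 genes to fall by at least 1 on the log2 scale, against 0.326% of all tested genes. Top2a, the topoisomerase that untangles sister chromatids, was 107, 94.8 and 96.4 TPM against 46.9, 46.5 and 63.4 TPM. It fell by 0.93 (SE 0.13, limma adjusted p = 0.00937). Mki67, the gene of the proliferation marker Ki-67, fell by 0.86 from 19, 15.2 and 16 TPM to 8.66, 7.69 and 9.9 TPM (limma adjusted p = 0.0127). Smc4, the ATPase shared by both condensins, was 332, 282 and 295 TPM against 230.4, 227 and 259 TPM and did not pass (log2 change -0.34, limma adjusted p = 0.0535). Lbr and Tmpo, which encode inner nuclear membrane proteins, fell by 0.39 and 0.46 (limma adjusted p = 0.0346 and 0.00771). The levels of Tmpo were tight, at 448, 417 and 430.4 TPM and 313, 309 and 323 TPM. With the coding-length trend removed, Mki67, Lbr and Tmpo did not pass, with log2 changes of -0.40, -0.17 and -0.21 (limma adjusted p = 0.163, 0.142 and 0.0936).

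The second comparison set the GFP-positive against the GFP-negative cells of each line, which had all received dDAVP. Over the 4 lines, 51 of the 55 genes were lower in GFP-positive cells and none higher, by limma with the line as a covariate (0 higher at an unadjusted p under 0.05). Over all 13113 genes tested, 23.2% were lower and 12.1% higher. The median log2 change of the 55 genes was -1.03, against -0.06 over all tested genes, and 30 of them were lower by at least 1 on the log2 scale, against 3.16%. Both GFP-positive libraries lay below both GFP-negative libraries in all 4 lines for 39 genes, against 12.2%. GFP differs between these fractions by the choice of cells. In the same fit 9 of the 13 principal-cell markers tested were higher in GFP-positive cells and 1 lower. Of the markers of other cell types tested, Atp6v1b1 (intercalated cells) was higher by a log2 change of 0.81, Lrp2 (proximal tubule) by 0.56 and Csf1r (leukocytes) had one of -0.57, with limma adjusted p-values of 0.00899, 0.00525 and 0.00111. In C50 both tested intercalated-cell genes were higher, with log2 changes of 1.48 and 1.62. In C1 the 1 proximal tubule gene tested was higher, by 1.01, and in C43 1 of 2 leukocyte genes tested was lower. The part of all these markers in the result was not tested. Within the libraries with more genes above 0, all 55 genes were lower, against 21.8% of all genes, with a median log2 change of -1.39. Within those with fewer genes the median was -0.86, and only Tacc3 passed (adjusted p = 0.0368), against 1.21% of all genes. The libraries with more genes include no GFP-negative library of C1, and those with fewer include none of C11. The fraction difference of C1 therefore does not enter the first median, nor that of C11 the second.

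**Figure D2:**
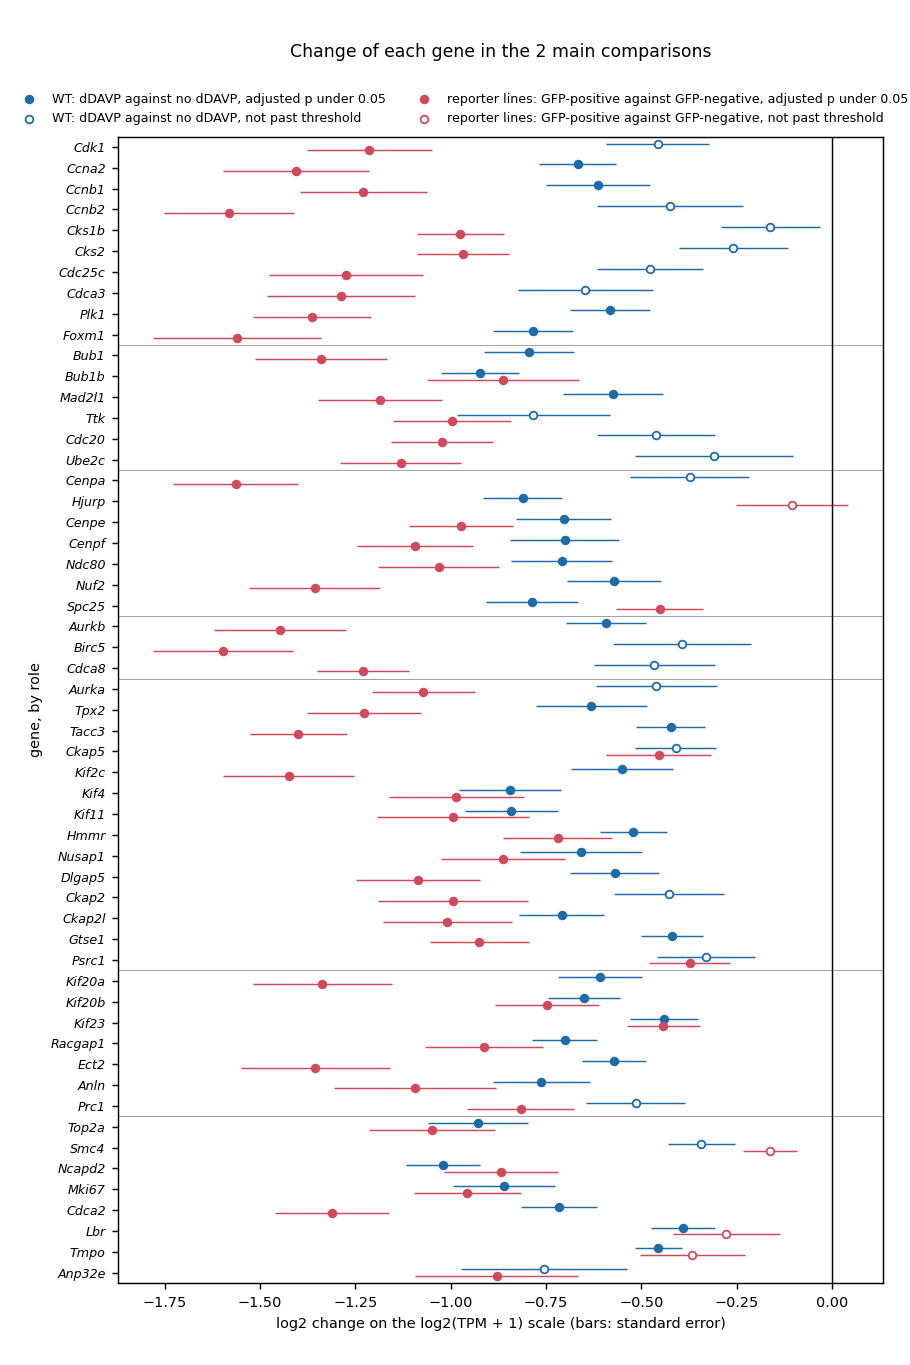
Log2 change of each of the 55 genes (rows, grouped by role) with dDAVP in WT cells (blue, 6 libraries) and in GFP-positive against GFP-negative cells over 4 lines (red, 16 libraries). Bars are standard errors, and filled points passed an adjusted p of 0.05. All points lie left of 0, and those of Hjurp, Smc4, Lbr and Tmpo are open for the GFP comparison.

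All 10 genes of the CDK1 group were lower in GFP-positive cells, with a median log2 change of -1.28. Ccnb2 was 79.2 and 91.6 TPM in C1 GFP-negative cells and 51.8 and 47.5 TPM in C1 GFP-positive cells. In C11 it was 48.4 and 56.8 TPM against 20.1 and 19.3 TPM, and in C43 63.7 and 56.5 TPM against 16.9 and 17.1 TPM. In C50 it was 93.1 and 94.6 TPM against 17.7 and 15.5 TPM. No fraction overlapped its partner, and the fall of 1.58 (SE 0.17, limma adjusted p = 7.34e-06) was the second largest of the 55. Cdk1 was 332 and 288 TPM against 231 and 249 TPM in C1 and 384 and 372 TPM against 187 and 185 TPM in C11. It was 498 and 429 TPM against 150.3 and 175 TPM in C43 and 625 and 572 TPM against 158 and 148 TPM in C50. Its log2 change was -1.21 (SE 0.16, limma adjusted p = 5.5e-05), and the ratio of GFP-positive to GFP-negative means ran from 0.773 in C1 to 0.256 in C50. Foxm1 had a log2 change of -1.56 (SE 0.22), Ccna2 of -1.41, Plk1 of -1.36 and Ccnb1 of -1.23. Their limma adjusted p-values were between 1.22e-05 and 7.9e-05. Foxm1 was 5.5 and 3.74 TPM in C43 GFP-positive cells, its lowest group. Cks1b and Cks2, which overlapped in WT cells, passed here, with log2 changes of -0.98 and -0.97 (limma adjusted p = 1.55e-05 and 2.66e-05).

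All 6 checkpoint and APC/C genes passed. Ube2c had the highest levels of this group, at 693 and 535 TPM in C50 GFP-negative cells and 149 and 145 TPM in C50 GFP-positive cells. In C1 it was 318 and 306 TPM against 209 and 223 TPM, a smaller gap. Over the lines it fell by 1.13 (SE 0.16, limma adjusted p = 7.41e-05). Mad2l1 had a log2 change of -1.19 (SE 0.16), Cdc20 of -1.02 (SE 0.13) and Bub1b of -0.86 (SE 0.20). The limma adjusted p-values were 6.12e-05, 4.03e-05 and 0.00364. Bub1b was uneven in C50 GFP-negative cells, at 23.8 and 69.5 TPM in the 2 libraries, against 19.3 and 22.1 TPM in GFP-positive cells.

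Kinetochore genes passed in 6 of 7 cases and passenger genes in 3 of 3. Cenpa was 125 and 123 TPM against 69.8 and 63.8 TPM in C1 and 117 and 135 TPM against 53.5 and 50.3 TPM in C11. It was 141 and 143 TPM against 38.8 and 47.6 TPM in C43 and 230.5 and 199 TPM against 43.1 and 35.7 TPM in C50. It fell by 1.56 (SE 0.16, limma adjusted p = 5.58e-06), with fractions apart in every line. Ndc80, Cenpf and Cenpe had log2 changes of -1.03, -1.09 and -0.97 (limma adjusted p = 0.000168, 7.23e-05 and 7.74e-05). Hjurp did not pass, with a log2 change of -0.10 (SE 0.15, limma adjusted p = 0.631). Hjurp was 48 and 111 TPM against 77.8 and 75.6 TPM in C50 and 69.8 and 97.2 TPM against 90.4 and 97.7 TPM in C1, and both pairs overlapped. Birc5 had the largest change of the 55 genes. It was 131 and 125 TPM against 80.7 and 80.1 TPM in C1 and 133 and 122 TPM against 49.4 and 45.3 TPM in C11. In C43 Birc5 was 158 and 162 TPM against 45.3 and 44.4 TPM, and in C50 241 and 206 TPM against 41.8 and 35.5 TPM. It fell by 1.60 (SE 0.18, limma adjusted p = 1.32e-05). Aurkb fell by 1.45 (SE 0.17, limma adjusted p = 1.94e-05), to 21.7 and 24.7 TPM in C43 GFP-positive cells from 98.6 and 88.1 TPM in GFP-negative cells.

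**Figure D3:**
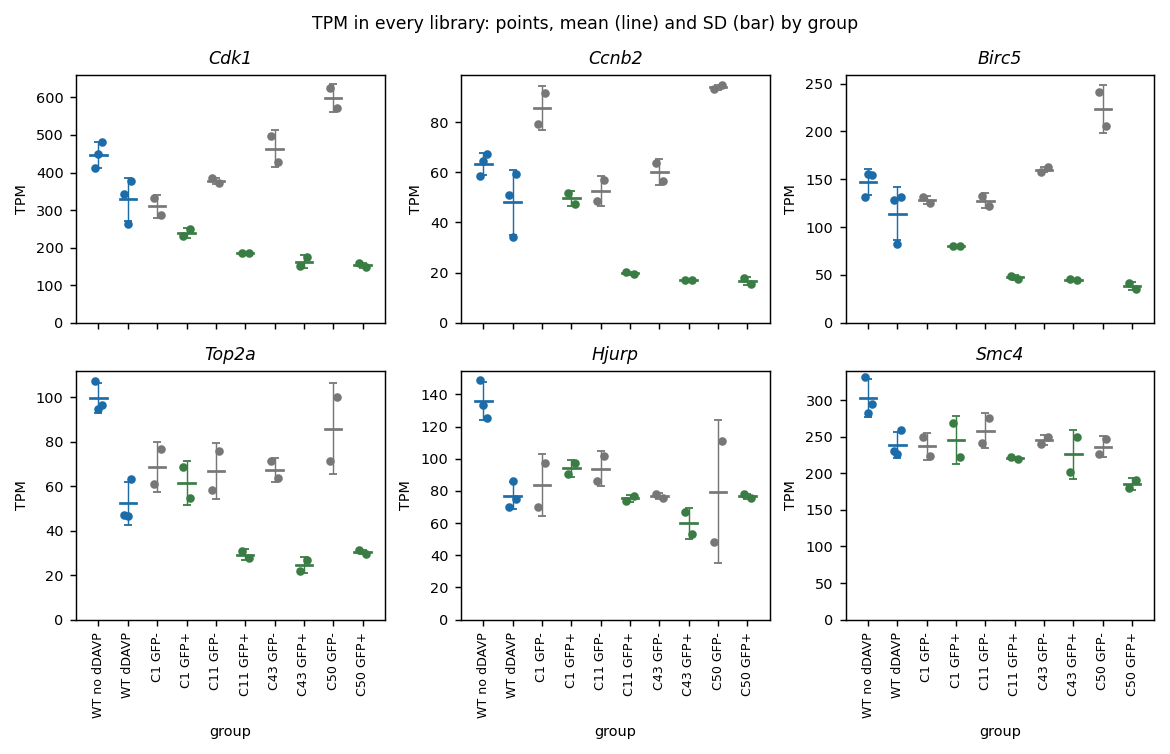
TPM (linear axes from 0) of Cdk1, Ccnb2, Birc5, Top2a, Hjurp and Smc4 in each of the 10 groups, with every library as a point, the group mean as a line and the SD as a bar (n = 3 in WT groups and 2 in the others), in blue for WT, grey for GFP-negative and green for GFP-positive cells. Birc5 in the 8 GFP-positive libraries lies between 35.5 and 80.7 TPM, below all 8 GFP-negative libraries, while Hjurp and Smc4 overlap between fractions.

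All 14 spindle and all 7 cytokinesis genes were lower in GFP-positive cells, with median log2 changes of -0.99 and -0.91. Tpx2, Aurka and Kif11 had log2 changes of -1.23, -1.07 and -0.99 (limma adjusted p = 2.07e-05, 2.85e-05 and 0.00133). Kif11 was 19.3 and 28.4 TPM against 21.9 and 21.1 TPM in C1, which overlapped, and 30.4 and 26.9 TPM against 9.64 and 9.27 TPM in C43, which did not. Kif20a, the motor that carries the passenger complex to the midzone, fell by 1.34 (SE 0.18, limma adjusted p = 6.04e-05). Kif23, the motor subunit of centralspindlin, had one of the smaller falls, by 0.44 (SE 0.096, limma adjusted p = 0.00238). Kif23 was 132 and 149 TPM against 136 and 136 TPM in C1 and 110.0 and 103 TPM against 73.3 and 65.9 TPM in C43. Prc1 and Anln had log2 changes of -0.82 and -1.09 (limma adjusted p = 0.000382 and 0.000992). Psrc1, which regulates spindle microtubules, had the smallest fall among genes that passed, by 0.37 (limma adjusted p = 0.0129). It did not pass with the coding-length trend removed (-0.27, limma adjusted p = 0.061).

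The chromosome and envelope group held 3 of the 4 genes that did not pass between fractions. Top2a was 60.9 and 76.7 TPM against 68.5 and 54.5 TPM in C1, which overlapped. It was 58.1 and 75.7 TPM against 30.9 and 27.6 TPM in C11, 71.1 and 63.5 TPM against 21.9 and 26.9 TPM in C43 and 71.4 and 100.2 TPM against 31.1 and 29.6 TPM in C50. Top2a fell by 1.05 (SE 0.17, limma adjusted p = 0.000209), and Mki67 by 0.96 (limma adjusted p = 0.000104). Smc4 had a log2 change of -0.16 (SE 0.071, limma adjusted p = 0.0892), with levels of 240.3 and 249.9 TPM against 202 and 249 TPM in C43. Lbr had one of -0.28 (SE 0.14, limma adjusted p = 0.145). Tmpo, at -0.37 (SE 0.14), was the gene just outside the threshold (limma adjusted p = 0.0516). In C50 GFP-negative cells the 2 libraries of Lbr read 33 and 70.7 TPM and those of Tmpo 156 and 333 TPM, each spanning both GFP-positive libraries. With the coding-length trend removed over all libraries, Lbr and Tmpo passed, at -0.22 and -0.31 (limma adjusted p = 0.0232 and 0.00504). Without the first C50 GFP-negative library they also passed, with log2 changes of -0.40 and -0.48.

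The genes that fell in both comparisons numbered 33, which is 33 of the 36 in WT cells and 33 of the 51 between fractions, against 3.14% of all genes tested in both. The sizes of the 2 changes were not ordered alike. Spearman's rho between them was -0.03 over the 55 genes, a description across genes for comparisons that share no library. Coding length ran with the 2 changes in opposite directions, with a rho of -0.502 in WT cells and 0.259 between fractions. The part of length in the unlike order was not tested. Birc5, Ccnb2 and Cenpa, which led between fractions, were 3 of the 7 genes that overlapped in WT cells, and Birc5 and Cenpa passed there once the trend along coding length was removed. Hjurp was 1 of the 3 genes that fell with dDAVP without passing between fractions, the others being Lbr and Tmpo. With the coding-length trend removed Lbr and Tmpo were the reverse, passing between fractions and not in WT cells.

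Line by line, the 55 genes had a median log2 change of -0.43 for C1, -1.04 for C11, -1.35 for C43 and -1.51 for C50. Over all genes tested it was -0.06, -0.12, -0.16 and 0.09. In C1, 8 genes were lower by limma, against 4.91% of all genes. In C11 the number was 38, against 5.7%, in C43 it was 49, against 12%, and in C50 it was 47, against 13.8%. Over all genes 2.31% were higher for C1, 2.23% for C11, 4.29% for C43 and 12.8% for C50. None of the 55 genes was higher in any line by limma, and 0 were higher at an unadjusted p under 0.05. The highest value was that of Hjurp in C1, a log2 change of 0.19 (limma adjusted p = 0.843). Both GFP-positive libraries lay below both GFP-negative ones for 40 genes in C1 (35% of all genes), 55 in C11 (42.2%), 53 in C43 (42.1%) and 51 in C50 (25.7%). Aqp2 rose between the same fractions from 69.5 ± 4.29 to 2017 ± 13.5 TPM (SD, n = 2) in C1, from 249 ± 19.2 to 3002 ± 149.9 TPM in C11, from 1624 ± 79.1 to 6952 ± 428 TPM in C43 and from 1243 ± 16.2 to 4651 ± 342 TPM in C50.

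**Figure D4:**
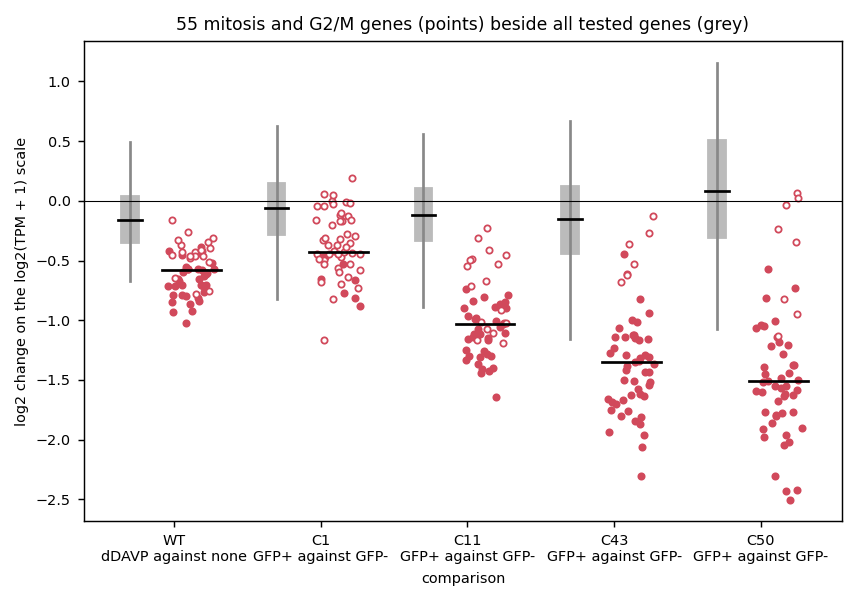
Log2 change on the log2(TPM + 1) scale of the 55 genes (points, filled where an adjusted p of 0.05 was passed, with a black line at their median) beside all tested genes (grey box from the 25th to the 75th percentile, grey line from the 5th to the 95th, black line at the median), for dDAVP in WT cells and for GFP-positive against GFP-negative cells in each line. The medians of the 55 genes are -0.58 for WT cells, -0.43 for C1, -1.04 for C11, -1.35 for C43 and -1.51 for C50.

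These 4 counts share 1 estimate of the spread, and 2 libraries per group leave them open to single libraries. Leaving out either C50 GFP-negative library gave 19 genes in C1, against 10.9% and 11% of all genes, and 51 in C11, against 13% and 13.1%. Leaving out the second C11 GFP-negative library lowered that of C11 to 15 (1.7% of all genes), and leaving out the first or second C11 GFP-positive library gave 20 (1.81%) and 16 (1.73%). In C1 the count was between 3 and 5 without any 1 of its own 4 libraries, against 1.96% to 2.92%. In C50, Hjurp, Lbr and Ckap5 had log2 changes of 0.07, 0.02 and -0.03, none past the threshold. Without the second C50 GFP-negative library all 3 were higher in GFP-positive cells, with log2 changes of 0.66, 0.56 and 0.51 that passed. Without the first, Lbr was lower (-0.52, limma adjusted p = 0.0359) and Hjurp stood at -0.53 (limma adjusted p = 0.0655). Fitted on its own 4 libraries, C50 kept only Birc5 (log2 change -2.50, limma adjusted p = 0.0492), against 0.123% of all genes.

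The 8 genes lower in all 4 lines were Ccnb2, Cks2, Ube2c, Cenpa, Aurkb, Birc5, Cdca8 and Tacc3, against 2.14% of all genes. They include all 3 passenger genes, and Tacc3 encodes a microtubule-stabilizing partner of Aurora A. All but Tacc3 (1911 coding bases) had 237 to 1194 coding bases, against a median of 1992 over the 55 genes. In C1 Cenpa fell by 0.88 (SE 0.14, limma adjusted p = 0.00229), Tacc3 by 0.82 and Ccnb2 by 0.77. In C50 the largest falls were those of Birc5 by 2.50, Ccnb2 by 2.43 and Cenpa by 2.42, each with an SE of at most 0.14. In C43 Foxm1 and Ect2, the exchange factor that activates RhoA at the division site, fell most, by 2.30 and 2.06. Bub1 had the lowest value in C1, a log2 change of -1.16 with an SE of 0.35 that did not pass (limma adjusted p = 0.0775). With the coding-length trend removed it passed (-1.10, limma adjusted p = 0.0133). Across the 55 genes, Spearman's rho between the changes of 2 lines lay between 0.593 (C1 with C50) and 0.821 (C11 with C43), a description over genes in lines that share no library.

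Whether the fraction difference itself varied with the line was tested by an interaction over the 4 lines. It passed for 11 of the 55 genes, against 0.869% of all genes tested. These 11 had coding lengths of 237 to 1194 bases, against a median of 1992 over the 55 genes. The smallest limma adjusted p was that of Birc5, at 0.0017, whose changes by line on the log2 scale were -0.67 (C1), -1.41 (C11), -1.81 (C43) and -2.50 (C50). Cdk1 went from -0.37 in C1 through -1.02 and -1.51 to -1.96 in C50 (limma adjusted p = 0.00309). Spc25, an NDC80 complex subunit, had a change of 0.06 in C1 (limma adjusted p = 0.0475 for the interaction), and in C50 it was 82.2 and 97.5 TPM against 42.9 and 45.4 TPM. The change was highest in C1 and lowest in C50 for all 3. The count was 6 and 7 without the first or second C1 GFP-positive library and 7 without the second C50 GFP-positive library. The shares of all genes were then 0.319%, 0.388% and 0.359%. Without the first or second C50 GFP-negative library it was 32 and 43, against 2.49% and 38.6%.

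Within GFP-positive cells, the 4 lines differed for 36 of the 55 genes, against 18.9% of all genes. C1 had the highest mean of the 4 GFP-positive groups for 52 genes, and its 2 libraries lay above the other 6 for 49, against 17.3%. Ckap2, which encodes a spindle-associated protein and was singled out after its values were seen, differed between lines with a limma adjusted p of 0.000284. Its levels in GFP-positive cells were 27.5 and 26.9 TPM for C1, 6.6 and 7.71 TPM for C11, 5.27 and 5.38 TPM for C43 and 6.23 and 7.78 TPM for C50. The C1 libraries stood apart from the other 6. Without the first or second C1 GFP-positive library the count of 36 fell to 16 and 17, against 9.44% and 10% of all genes. Within GFP-negative cells, 13 genes differed between lines, against 16.9%. With median-ratio scaling the count was 26, against 18%. Without the first or second C50 GFP-negative library it was 27 and 26, against 23.5% and 57%. The 2 C50 GFP-negative libraries lay above the other 6 for 13 genes, against 4.66%. Cks1b was not among these 13. It was 1029.9 and 725 TPM there, against 539.6 and 534 TPM in C1, 655 and 581 TPM in C11 and 715 and 726 TPM in C43. The highest and lowest GFP-negative groups of Ube2c, C50 at 693 and 535 TPM and C11 at 278 and 285 TPM, did not overlap. Cks1b and Ube2c are short, at 237 and 537 coding bases. Both read higher in the first C50 GFP-negative library than in the second, by 0.51 and 0.37 on the log2 scale.

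Against WT cells given dDAVP, the GFP-negative groups were higher and the GFP-positive groups of 3 lines lower, by the median ratio of means over the 55 genes. Line and fraction cannot be told apart in this contrast, so it is given without a test. The median over the 55 genes of the ratio of means to WT cells with dDAVP was 1.27 for C1, 1.21 for C11, 1.28 for C43 and 1.57 for C50 GFP-negative cells. It was 0.944, 0.56, 0.468 and 0.515 in the GFP-positive cells of the same lines. All libraries lay below all 3 WT libraries with dDAVP for 52 genes in C11 (28% of all genes), 52 in C43 (33.1%) and 51 in C50 GFP-positive cells (28.3%). In C1 GFP-positive cells they did for 14, against 30.7%. The GFP-negative libraries lay above all 3 WT libraries with dDAVP for 31 genes in C1 and 20 in C11. In C43 and C50 they did for 33 and 35. The share of all genes was not counted for the GFP-negative groups. Against WT cells without dDAVP the ratios were 0.819, 0.764, 0.809 and 1.02 in GFP-negative cells and 0.618, 0.364, 0.305 and 0.323 in GFP-positive cells.

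Other cell cycle genes in lists set beside the 55 were counted in the same fits. The shares of all genes in these fits were 6.51% lower with dDAVP, and 23.2% lower and 12.1% higher between fractions. Of 44 further mitosis genes, 29 fell with dDAVP in WT cells and 40 were lower in GFP-positive cells, with median log2 changes of -0.62 and -0.99 and none higher by limma in either. Lmnb1, which encodes lamin B1, had the largest fall in WT cells, by 1.27 (SE 0.22, limma adjusted p = 0.0186), and Ncapg2, a condensin II subunit, fell by 0.98 (limma adjusted p = 0.00166). Between fractions, Mybl2, which encodes B-MYB, fell by 1.62 (SE 0.21, limma adjusted p = 3.71e-05) and Spag5, a spindle protein, by 1.53 (limma adjusted p = 4.4e-05). Of 45 DNA replication genes, 34 fell with dDAVP and 33 between fractions, each with a median log2 change of -0.47. Dtl, the CUL4 adaptor that targets CDT1, and Mcm10 led in WT cells, with falls by 0.87 and 0.84 (limma adjusted p = 0.00554 and 0.00679). Rrm2, a ribonucleotide reductase subunit, and Gins1 of the replicative helicase led between fractions, with falls by 1.26 and 1.24 (limma adjusted p = 0.000322 and 7.88e-05). Of 16 core subunits and regulators of the APC/C, 1 fell in WT cells and 6 between fractions, the first near the share of all genes. Of 15 tested genes for cell cycle inhibitors, pocket proteins and MuvB subunits, 2 fell with dDAVP. Between fractions 6 of these were lower and 2 higher, the latter near the share of all genes. In C1, 0 of the 44 further mitosis genes and 1 of the 45 replication genes were lower by limma, against 4.91% of all genes.

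Coding length moved with several of these changes and differed between libraries of the same group. Lengths from the GENCODE M21 annotation were at hand for all 55 genes. Spearman's rho between coding length and the change with dDAVP in WT cells was -0.502 over the 55 genes and -0.458 over 11154 genes, longer genes having the more negative change. For the fraction difference it was 0.259 over the 55 genes and 0.0984 over 11066 genes, and in C50 0.477 and 0.366. The 4 shortest of the 55 genes, with up to 500 coding bases, had a median log2 change of -0.32 in WT cells, and the 13 longest, over 3000, one of -0.80. Between fractions the same groups had medians of -1.27 and -0.97. The 2 C50 GFP-negative libraries differed along length too. Their difference, the first minus the second, had a rho of -0.484 over the 55 genes and a median of -0.56, with Anln at -1.51, Bub1b at -1.51, Ube2c at 0.37 and Cks1b at 0.51. The 3 longest of the 55 lay above that median, with Mki67 at -0.22, Cenpf at -0.40 and Cenpe at -0.37, while Ckap5, the next in length, was at -1.08. The first of the 2 had 17701 genes above 0 and the second 30131.

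**Figure D5:**
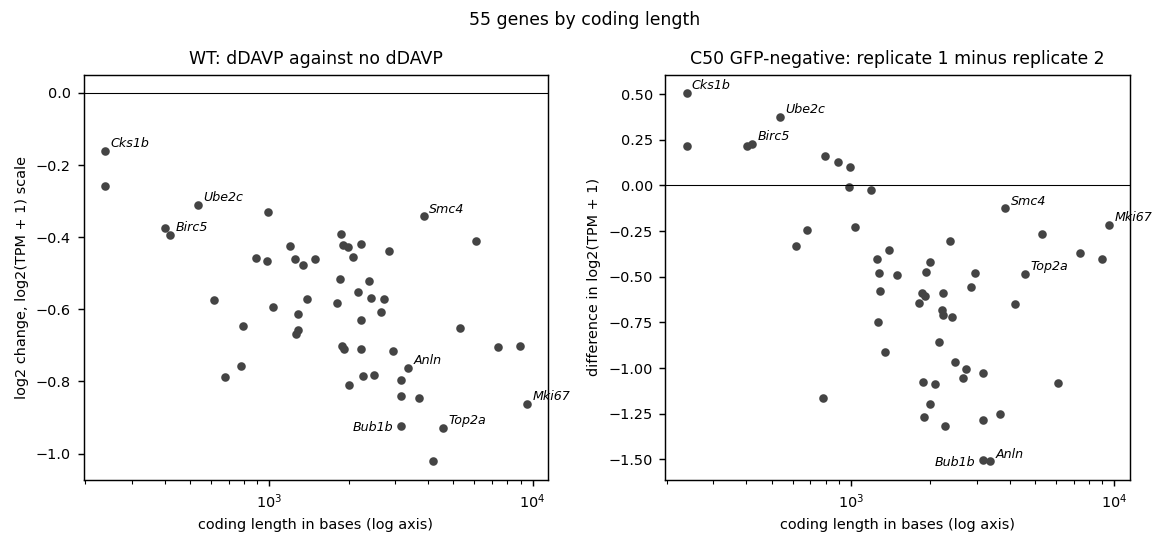
Log2 change with dDAVP in WT cells (left) and the difference in log2(TPM + 1) between the 2 C50 GFP-negative libraries, first minus second (right), of the 55 genes against coding length in bases on a log axis, with 8 genes named. The shortest genes, such as Cks1b, lie highest in both panels, while on the right Anln (3363 bases) and Bub1b (3156 bases) lie lowest, at -1.51, and the longest gene, Mki67 (9531 bases), lies higher, at -0.22.

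With the trend along coding length removed in each library, 18 of the 55 genes fell with dDAVP in WT cells, against 4.91% of all genes, and the median log2 change was -0.37. Cks1b, Cks2, Cdca3, Cenpa, Birc5 and Anp32e gained a call and 24 genes lost theirs. Those 24 were Ccnb1, Plk1, Bub1, Cenpe, Cenpf, Ndc80, Nuf2, Tpx2, Tacc3, Kif2c, Kif4, Hmmr, Nusap1, Dlgap5, Ckap2l, Gtse1, Kif20a, Kif20b, Kif23, Ect2, Mki67, Cdca2, Lbr and Tmpo. Birc5 then had a log2 change of -0.43 (limma adjusted p = 0.0464) and Cks2 one of -0.37 (limma adjusted p = 0.0104). Between fractions 52 were lower, against 23.1%, with a median of -0.98. In C1, C11, C43 and C50 the counts were then 13, 43, 49 and 51, against 7.07%, 7.02%, 12.3% and 18.7%. Between fractions Lbr and Tmpo gained a call and Psrc1 lost it. In C1 the genes gained were Cks1b, Plk1, Bub1, Aurka and Kif2c, and in C11 Cdc25c, Kif4, Kif11, Racgap1 and Anln. In C43 Lbr and Tmpo were gained and Spc25 and Hmmr lost, and in C50 Bub1b, Anln, Smc4 and Tmpo were gained. The interaction passed for 37 genes, against 3.04%. The differences between lines passed for 45 genes in GFP-positive cells, against 32.6%, and for 39 in GFP-negative cells, against 29.5%. Of the 44 further mitosis genes 20 fell with dDAVP (median log2 change -0.40) and of the 45 replication genes 22 (median -0.28). Between fractions the counts were 40 and 31. Ckap5 and Smc4 changed sign in WT cells, to 0.01 and 0.02, and did not pass (limma adjusted p = 0.976 and 0.911). This fit was chosen after the data had been seen.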

How the data were processed

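RNA of 22 mpkCCD libraries, in 10 groups, was sequenced. The SMART-Seq HT kit gave the cDNA and the Nextera XT kit the paired-end libraries, per the labels' protocols. The submitters' processing notes name STAR and RSEM, and the genome build, annotation and versions are not given in the sources used here. The authors deposited 1 table of TPM per gene and library. TPM keep no depth, so read depth is unknown and no count test, counting interval or detection limit was possible.

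Rows that share a symbol were summed, which left 54514 entries of 55415 lines. Values were analysed as log2(TPM + 1) in limma 3.58.1 (R 4.3.3) with a mean-variance trend, for genes with a mean of at least 1 TPM over the libraries fitted, with Benjamini-Hochberg adjustment over all genes fitted and a threshold of 0.05. The WT fit used 6 libraries. The fit over reporter lines used 16 with the line as covariate, and the fit by line, which also gave the F-tests between lines, used 1 mean per line and fraction. The p-values used here were computed from these fits and none were deposited. Coding lengths came from the GENCODE M21 annotation and promoters from RefSeq (GRCm38.p6). The fits were tested on simulated data.

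The 55 genes and the other lists were chosen with earlier results of these data known. The genes described one by one are a panel set by role, the 3 largest and 3 smallest changes in each main comparison, and further genes where the text says so. The 2 largest changes of the other mitosis and replication lists are named. Alternatives changed the pseudocount, filter, scaling, moderation, threshold, libraries, replicate block and coding-length trend. No 2 libraries of a group held identical values.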

Additional observations from a re-analysis of the deposited data

Results flagged for a closer look

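The fraction difference varied between the 4 reporter lines for 11 of the 55 genes (0.869% of all genes), by limma's F-test for the interaction of fraction and line over 16 libraries, which is what marked them for a closer look. The adjusted p-values were 0.0017 for Birc5, 0.00253 for Cdca3, 0.00309 for Cdk1 and 0.00332 for Aurkb. They were 0.00397 for Ube2c, 0.00564 for Ccnb2 and 0.00906 for Mad2l1. They were 0.0124 for Cenpa, 0.0143 for Cks2, 0.0242 for Cdca8 and 0.0475 for Spc25. In each of the 11 genes the log2 change was highest in C1 and lowest in C50. All 11 were among the shorter of the 55 genes, with 237 to 1194 coding bases against a median of 1992. The part of length in which genes passed was not tested. Cdca3, which encodes a trigger of mitotic entry, went from -0.35 (SE 0.13) in C1 to -2.31 in C50, and Ube2c from -0.53 (SE 0.11) to -2.04. In C1 Ube2c was 318 and 306 TPM in GFP-negative and 209 and 223 TPM in GFP-positive cells, and in C50 693 and 535 TPM against 149 and 145 TPM. With the coding-length trend removed, 37 of the 55 genes passed the same test (3.04% of all genes), and with the replicate number as a block only Birc5 did (adjusted p = 0.029, 0.0839% of all genes).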

How the results depend on the processing

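Percentages in brackets are shares of all genes called. Median changes of the 55 genes stayed below 0 under every alternative run, in every comparison. Over the reporter lines 49 to 55 genes were lower under every alternative except the libraries with fewer genes detected, where 1 was (1.21%). Its median was -1.39 in the libraries with more genes detected and -1.31 without C1. In WT cells the count of 36 (6.51%) was 22 with no filter (0.678%), 16 with median-ratio scaling (2.42%), 17 with quantile normalization (2.76%), 8 at an adjusted p under 0.01 (0.763%), 1 in the libraries with more genes detected (0.122%) and 18 with the coding-length trend removed (4.91%). Its median was -0.4143 with median-ratio scaling and -0.3744 with the trend removed. In C1 the count of 8 (4.91%) was 5 with median-ratio scaling (3.96%), 4 at 0.01 (2.26%), 13 in the line alone (6.2%), 13 with the trend removed (7.07%) and 20 when the first C50 GFP-negative library was also left out (10.3%). C11 had 24 at 0.01 (2.2%), and C50 had 1 in the line alone (0.123%). The interaction count of 11 (0.869%) was 25 with median-ratio scaling (1.2%), 27 with quantile normalization (1.78%), 7 at 0.01 (0.305%), 37 with the trend removed (3.04%) and 40 without that library too (4.24%). In GFP-negative cells the count of 13 (16.9%) was 26 (18%), 29 (22%), 7 (6.72%), 39 (29.5%) and 39 (30.6%) under the same settings. In WT cells the genes that changed sign under an alternative were Cks1b with median-ratio scaling (0.0106, adjusted p = 0.978) and, with the trend removed, Smc4 (0.0236, adjusted p = 0.911) and Ckap5 (0.0097, adjusted p = 0.976). Over lines it was Hjurp, in the libraries with fewer genes detected (0.1098, adjusted p = 0.834). Within lines 12 genes changed sign under at least 1 alternative in C1, 0 in C11, 1 in C43 (Smc4) and 4 in C50 (Hjurp, Lbr, Ckap5 and Tmpo). The cause of these shifts was not tested. Both trend fits were chosen after seeing the data.

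Between libraries of the same replicate number, the correlations of deviations from the group mean were -0.208, -0.0254 and -0.109 in WT cells. In C1, C11, C43 and C50 they were 0.0544, 0.0151, 0.203 and 0.0825. These cannot decide whether the replicate numbers pair the libraries, because libraries of a group also differed along coding length. With the replicate block, counts were 1 in WT cells (Ncapd2, 0.178%), 52 over lines (21.7%), 6 (3.1%), 33 (3.1%), 46 (8.92%) and 48 (12.1%) in C1, C11, C43 and C50, 1 for the interaction (0.0839%), and 13 (6.05%) and 6 (5.2%) between lines in GFP-positive and GFP-negative cells.

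Leaving out 1 library gave 10 to 37 genes in WT cells (median -0.6696 to -0.4875) and 51 to 53 over lines (-1.1265 to -0.9529). It gave 3 to 19 in C1 (-0.437 to -0.3718), 15 to 51 in C11 (-1.1369 to -0.9505), 37 to 52 in C43 (-1.4533 to -1.2655) and 38 to 53 in C50 (-1.8179 to -1.1981), with 0 to 3 higher in C50 and 0 in the other comparisons. The interaction ranged from 6 to 43, and the differences between lines from 16 to 51 in GFP-positive and 10 to 27 in GFP-negative cells. A lone library left in a group is assumed to vary like the others. The WT libraries with fewer genes detected, 1 a group, were not fitted. Unknown depth limits the reading of low genes such as Ttk.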
